A study of Mus musculus with 2 samples.

Results

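Cells hold receptors that recognise DNA or RNA in the cytosol, where neither foreign nor damaged nucleic acid should lie. Here 10 genes of these pathways were followed: the DNA sensor Cgas, the left-handed nucleic acid sensor Zbp1, the long double-stranded RNA sensor Ifih1 (MDA5), the DNA exonuclease Trex1, the adaptors Tmem173 (STING) and Mavs, the kinases Tbk1 and Ikbke, the transcription factor Irf3 and the interferon gene Ifnb1. They were chosen by name, and all 10 were found among the 32285 genes of the files, STING under the symbol Tmem173. The tumours were subcutaneous, formed in C57BL/6 hosts by CMT167R, a mouse carcinoma line described in the labels as anti-PD1 resistant, with wild type as the genotype. The PKCi library came from hosts that received the compound of that name (3 mg/kg, intraperitoneal, every day) and the control library from hosts that received solvent. Both were collected once control tumours measured 400 mm3. How many mice gave cells to a library is not stated in the labels, and the compound is known here only by that label.

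The files held 7457 barcodes and 229219749 unique molecular identifiers (UMIs, each a counted RNA molecule) in the PKCi library, and 6688 barcodes and 222641855 UMIs in the control library. After filtering, 7078 PKCi cells and 6269 control cells were kept, with medians of 29550.5 and 32992 UMIs. The libraries shared 20 barcode sequences before filtering and 18 among kept cells. Clusters were named from marker genes. Most cells, 5352 in the PKCi library and 4867 in the control library, formed a main population with the keratin gene Krt8 at 481 and 381 CPM (the UMIs of a gene per 1e6 UMIs of the summed cells) and the leukocyte gene Ptprc at 1.17 and 0.946 CPM. Ptprc lay at 382 and 407 CPM in monocyte-like cells. The 6 epithelial or carcinoma markers, Krt8 among them, summed to 486 and 388 CPM in the main population, so the others on that list added little. The 8 fibroblast markers summed to 137 and 174 CPM there. The other classes described here were macrophage-like (529 PKCi and 238 control cells), monocyte-like (469 and 487), neutrophil-like (188 and 294), dendritic-like (67 and 30), T-like (87 and 35), NK-like (47 and 23) and fibroblast-like (24 and 24) cells. A further 288 PKCi and 250 control cells stayed unnamed. The T-like class of the PKCi library carried the 6 mast cell markers at 3261 CPM, against 60.9 CPM in the control library, and 1 of its 87 cells held 1506 of those 1525 UMIs.

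As background, cGAS binds double-stranded DNA and makes a cyclic dinucleotide that activates STING, and MDA5 binds double-stranded RNA and activates MAVS. Both adaptors recruit TBK1 and its relative IKK-epsilon (the product of Ikbke), which phosphorylate IRF3, and IRF3 then enters the nucleus and induces Ifnb1 together with NF-kB. Secreted interferon-beta in turn induces a wide set of genes, Ifih1 and Zbp1 among them. TREX1 degrades cytosolic DNA, and ZBP1 binds RIPK3 to set off necroptosis.

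Promoters of the end product and of the inducible RNA sensor are shown, because the counts of Ifnb1 and Ifih1 were uneven between cells, as described below. Each runs from 250 bases before to 50 bases after the RefSeq start (GRCm38.p6), 5′ to 3′ on the coding strand. Capitals mark matches on either strand to the interferon regulatory factor core (AANNGAAA), the interferon-stimulated response element core (GAAA, any 2 bases, GAAA, which always contains the shorter core) and the NF-kB letters (GGGA, any 2 bases, TTCC). The Ifnb1 window lies at chr4:88522745-88523044, minus strand, and the Ifih1 window at chr2:62646206-62646505, minus strand.
Ifnb1: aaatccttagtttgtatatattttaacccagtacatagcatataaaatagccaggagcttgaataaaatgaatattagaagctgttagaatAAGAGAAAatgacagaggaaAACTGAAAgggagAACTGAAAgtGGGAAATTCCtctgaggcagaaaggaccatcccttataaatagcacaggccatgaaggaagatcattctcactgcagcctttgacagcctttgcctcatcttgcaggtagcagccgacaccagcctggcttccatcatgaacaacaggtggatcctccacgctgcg
Ifih1: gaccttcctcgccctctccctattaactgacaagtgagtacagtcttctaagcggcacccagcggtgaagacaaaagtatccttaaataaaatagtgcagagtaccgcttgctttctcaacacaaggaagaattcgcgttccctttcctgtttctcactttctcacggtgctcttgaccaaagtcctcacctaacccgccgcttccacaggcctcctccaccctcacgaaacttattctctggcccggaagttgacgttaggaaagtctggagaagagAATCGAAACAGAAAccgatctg
The Ifnb1 window held 3 matches to the regulatory factor core and 1 to the NF-kB letters. The Ifih1 window held 1 response element, which overlaps 2 matches to the shorter core. Across 32851 promoters of the same length, 3.44% held the response element, 23.9% the shorter core and 1.47% the NF-kB letters. Windows were read for 8 of the 10 genes, as none was listed for Zbp1 and Tmem173 was left out. Those of Cgas, Mavs, Irf3 and Tbk1 held none of these letters, nor did those listed for Trex1, and that of Ikbke held 1 regulatory factor core. A match to letters is a description and does not show binding.

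Every value below is a level in CPM with an exact Poisson 95% interval, or a ratio of PKCi over control with an exact interval. With 1 library per treatment, intervals cover counting error only, no difference has a replicate check, and no test between treatments was possible. Levels are compared between classes and libraries, not between genes.

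Both interferon-inducible sensors were far lower in the main population than elsewhere. Zbp1 (chromosome 2, 173206612 to 173218923, minus strand, GRCm38 as for all positions below) was at its lowest in the main population, at 1.90 CPM (1.72 to 2.10) in PKCi cells and 2.29 CPM (2.08 to 2.51) in control cells. It stood at 42.5 CPM (36.1 to 49.5) in PKCi and 86.1 CPM (77.4 to 95.5) in control monocyte-like cells. Fibroblast-like cells carried it at 82.7 CPM (56.2 to 117) in the PKCi library and 39.5 CPM (23.8 to 61.6) in the control library. These came from 31 and 19 UMIs, so the order of the top classes rests on few molecules. The first place changed with the library: fibroblast-like cells led in the PKCi library, with an interval apart from that of monocyte-like cells, and monocyte-like cells led in the control library, with each neighbour's interval overlapping the next down to NK-like cells. In both libraries the main population lay below every other class with its interval apart.

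Ifih1 (chromosome 2, 62595798 to 62646255, minus strand) showed the same split between the main population and the rest. It lay at 3.23 CPM (2.99 to 3.49) in PKCi and 2.34 CPM (2.14 to 2.56) in control cells of the main population. Dendritic-like cells held the most, 74.9 CPM (54.7 to 100) in the PKCi library and 121 CPM (81.6 to 173) in the control library, from 45 and 30 UMIs. T-like cells came next in both libraries with 72.7 and 39.4 CPM, then NK-like cells with 52.0 CPM in the PKCi library and monocyte-like cells with 37.9 CPM in the control library. In the PKCi library the intervals of neighbours overlapped from dendritic-like down to neutrophil-like cells. In the control library the dendritic-like interval stood apart from that of T-like cells.

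Cgas (chromosome 9, 78430526 to 78443237, minus strand) had UMIs in every class. It stood at 8.55 CPM (8.16 to 8.96) in PKCi and 8.12 CPM (7.73 to 8.52) in control cells of the main population, and at 11.9 CPM (9.49 to 14.8) and 16.4 CPM (12.8 to 20.7) in macrophage-like cells, its highest class. Monocyte-like cells had 7.91 CPM in the PKCi library and 5.28 CPM in the control library. Neutrophil-like cells had 8.40 and 7.88 CPM, from 8 and 13 UMIs, while Krt8 reached 60.4% and 31.8% of its main population level there, and the part of free RNA in these Cgas UMIs was not tested. No pair of neighbours in the order of the 8 classes had intervals apart, in either library, although the intervals of macrophage-like cells and the main population were apart in both.

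Trex1 had 0 UMIs in every barcode of both libraries. In the GENCODE vM21 annotation of GRCm38 all 1147 of its exon bases, on the minus strand of chromosome 9 between 109057933 and 109059734, also lie in exons of Atrip on the same strand. Atrip encodes a partner of the checkpoint kinase ATR and had 3667 UMIs over all PKCi barcodes and 3399 over all control barcodes. Reads from these exons cannot be told apart between the 2 genes, so the files give no measure of Trex1, and it enters no comparison below. Among the other members, exon overlap with a neighbour was found on the opposite strand alone, at most 4.87% of exon bases, for Cgas.

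The adaptors were both present in the main population. Tmem173 stood there at 24.0 CPM (23.3 to 24.6) in PKCi and 23.1 CPM (22.4 to 23.8) in control cells, and at least 1 UMI was seen in 52.9% and 55.7% of these cells. Fibroblast-like cells led the PKCi library with 58.7 CPM (36.8 to 88.8), against 33.2 CPM in the control library. Dendritic-like cells led the control library, with 41.6 CPM (26.9 to 61.5) in the PKCi library and 72.6 CPM (43.0 to 115) in the control library, and macrophage-like cells had 54.3 CPM (48.9 to 60.1) and 30.7 CPM (25.6 to 36.4). Neutrophil-like cells were lowest, with 15.8 CPM from 15 UMIs in the PKCi library and 10.9 CPM from 18 UMIs in the control library. Mavs (chromosome 2, 131234063 to 131248025, plus strand) had close levels in the main population, at 13.1 CPM (12.6 to 13.6) in PKCi and 11.9 CPM (11.5 to 12.4) in control cells, and in macrophage-like cells, at 12.1 and 12.6 CPM. Monocyte-like cells had 4.75 CPM (2.81 to 7.50) in the PKCi library and 3.12 CPM (1.66 to 5.33) in the control library, from 18 and 13 UMIs, with intervals below those of both classes.

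The kinases split by class. Ikbke (chromosome 1, 131254343 to 131279606, minus strand) was highest in the myeloid classes, at 61.0 CPM (55.3 to 67.1) in PKCi and 48.0 CPM (41.7 to 55.0) in control macrophage-like cells and at 59.6 CPM (52.1 to 67.9) and 47.7 CPM (41.3 to 54.8) in monocyte-like cells. The main population had 4.71 CPM (4.42 to 5.02) and 6.62 CPM (6.27 to 6.99). Dendritic-like cells had 0 UMIs of Ikbke in 67 PKCi cells, which allows a share of cells with a UMI of up to 4.48% (3 counts over the cells), and 4 UMIs in 30 control cells. Tbk1 (chromosome 10, 121546455 to 121586787, minus strand) was more even, with 43.6 CPM (42.7 to 44.5) in PKCi and 52.5 CPM (51.5 to 53.5) in control cells of the main population and 83.0 CPM (65.7 to 103) and 97.0 CPM (82.5 to 113) in neutrophil-like cells, its highest class. NK-like cells were lowest with 18.6 and 18.0 CPM, from 10 and 8 UMIs.

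Irf3 (chromosome 7, 44997648 to 45002848, plus strand) had no class that stood apart from all others. It stood at 15.3 CPM in PKCi and 14.5 CPM in control cells of the main population and between 9.99 and 25.7 CPM in the other PKCi classes and 6.23 and 24.2 CPM in the other control classes. All neighbours in the order had overlapping intervals in both libraries.

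**Figure D1:**
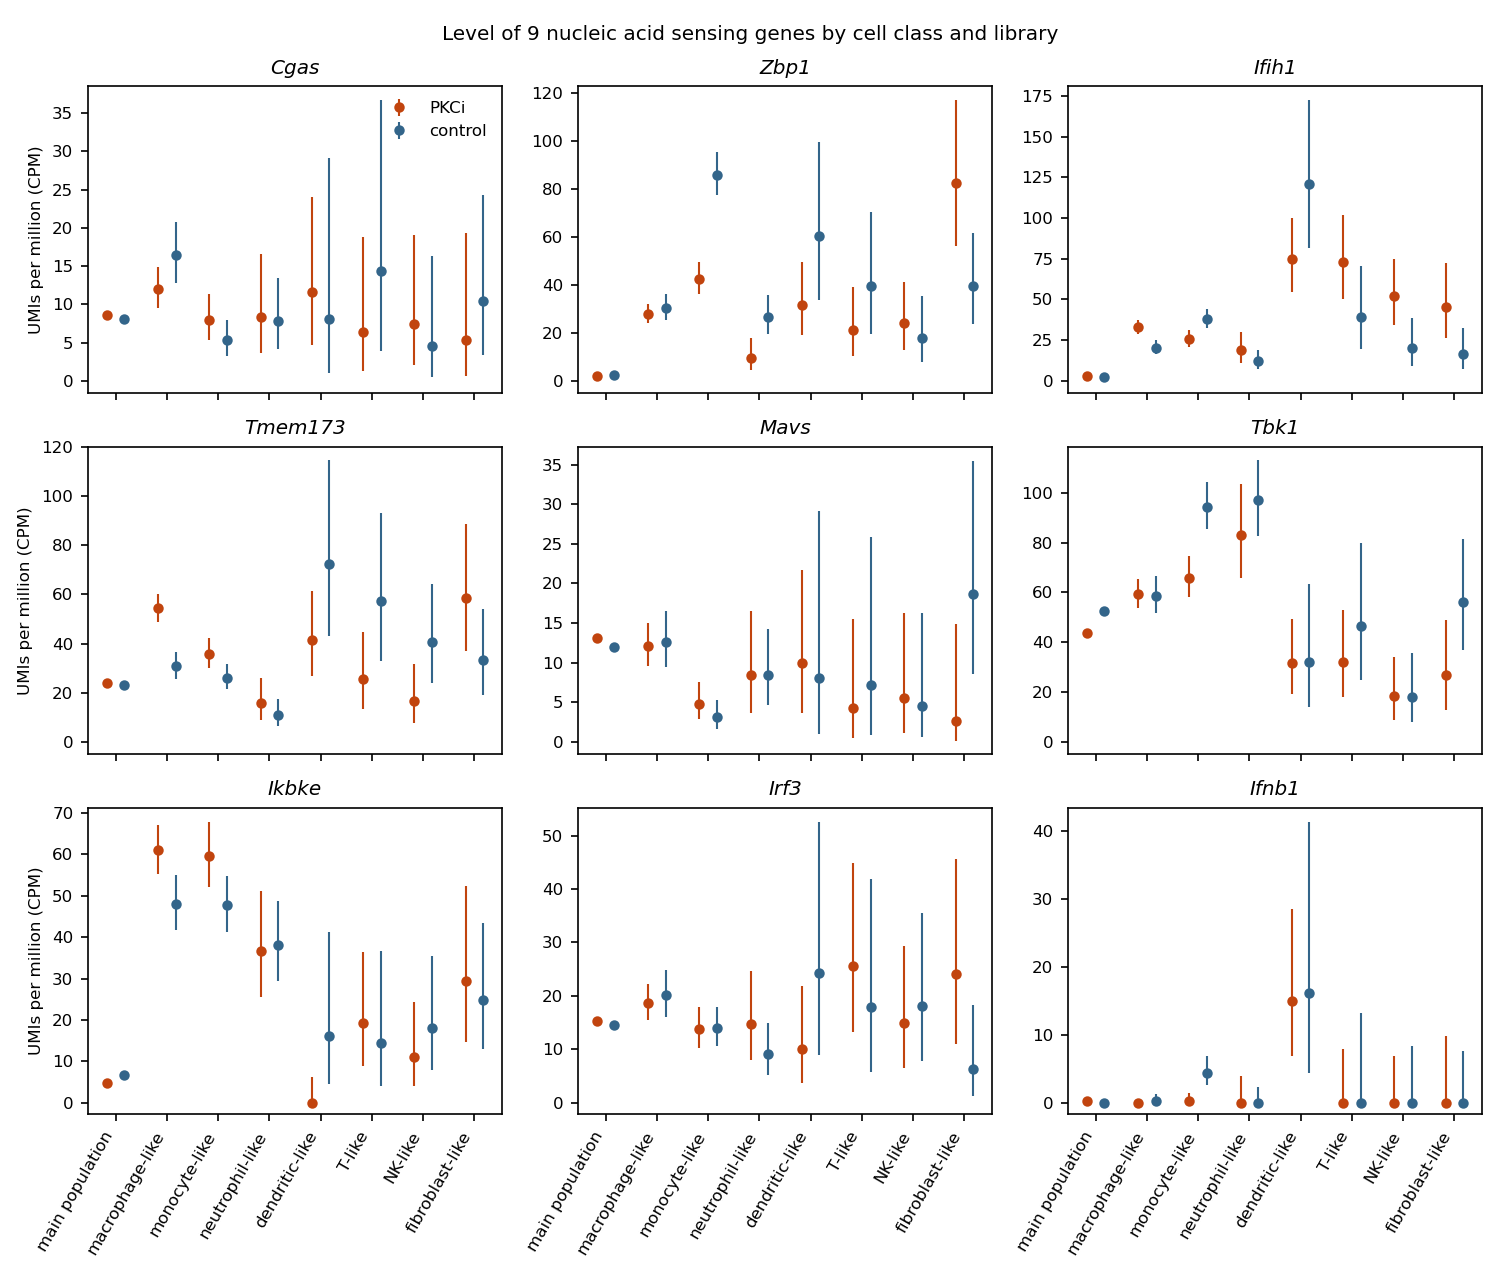
Level of 9 of the 10 genes in CPM (y axis, one scale per gene) in 8 cell classes (x axis), PKCi left of control, with exact Poisson 95% intervals from 1 library each. Ikbke is high in macrophage-like and monocyte-like cells, Zbp1 and Ifih1 are lowest in the main population, and no class stands apart from all others for Irf3.

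Ifnb1 (chromosome 4, 88522025 to 88522774, minus strand) was found in very few cells. Of the kept cells, 14 in the PKCi library held 56 UMIs and 10 in the control library held 25. In the main population 10 PKCi cells held 39 UMIs, 17 of them in a single cell and 5 cells with at least 2, while 2 control cells held 1 UMI each. Monocyte-like cells showed the opposite order, with 1 UMI in 1 of 469 PKCi cells and 18 UMIs in 6 of 487 control cells, the most in a cell being 7. Dendritic-like cells had 9 UMIs in 2 of 67 PKCi cells and 4 UMIs in 1 of 30 control cells. Levels were therefore 0.189 CPM (0.135 to 0.259) in PKCi and 0.00990 CPM (0.00120 to 0.0358) in control cells of the main population, and 0.264 CPM (0.00668 to 1.47) and 4.32 CPM (2.56 to 6.82) in monocyte-like cells. These intervals count each UMI separately, though 3 cells held 30 of the 39 PKCi UMIs of the main population. Counted by cell, the intervals of the libraries overlapped in both classes. A UMI was held by 0.187% (0.0896 to 0.343) of PKCi and 0.0411% (0.00498 to 0.148) of control cells of the main population. In monocyte-like cells the shares were 0.213% (0.00540 to 1.18) and 1.23% (0.453 to 2.66).

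No Ifnb1 UMI was seen in T-like, NK-like, neutrophil-like or fibroblast-like cells of either library. The T-like class leaves out an unnamed cluster whose best marker list was that of T cells, and a PKCi cell of that cluster held Ifnb1, as described below. In neutrophil-like cells 0 of 188 PKCi cells and 0 of 294 control cells allows a share of cells with a UMI of up to 1.60% and 1.02% (3 counts over the cells), at median depths of 2061 and 3408 UMIs. These limits lie above the shares in the main population, so a lack of Ifnb1 cannot be read from them, nor from the smaller classes. Its UMIs over both libraries stayed under the minimum of 50 used for calls in every class, and Ifnb1 enters no count of called genes.

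Most of the Ifnb1 cells of the main population in the PKCi library were also high in interferon-stimulated genes. A readout of 16 such genes, Isg15, Rsad2 and Cxcl10 among them, summed to 4530 CPM in these 10 cells and 538 CPM in the PKCi cells without an Ifnb1 UMI. Cell by cell, 7 of the 10 had between 2233 and 14994 CPM, and the other 3, with 1 Ifnb1 UMI each, had between 335 and 865 CPM. In the control library it was 589 CPM in the 2 cells with a UMI and 479 CPM in the rest. The sum was not weighted by gene. Over the whole main population Bst2, 1 of the 16 genes, stood alone at 385 CPM in PKCi and 375 CPM in control cells. Isg15 stood there at 18.5 and 15.4 CPM. Of the 10 PKCi cells, 4 lay in 1 cluster, led by Cxcl10, Isg15 and Ly6c1, and the cell with 17 UMIs in the cluster led by Rsad2, Ifit1 and Ifit3. The 6 monocyte-like control cells summed to 789 CPM, against 778 CPM in the other monocyte-like control cells, and 1 of them, with 5 Ifnb1 UMIs, had 4343 CPM. In dendritic-like cells the readout was 1183 CPM in the 2 PKCi cells with Ifnb1 and 2960 CPM in the other PKCi cells, and 7115 CPM in the 1 control cell with Ifnb1 and 2103 CPM in the other control cells. Of those 2 PKCi cells, 1 had 6 Ifnb1 UMIs and 4221 CPM. The other had 3 Ifnb1 UMIs and 612 CPM, with 55514 UMIs in all against 10423. One unnamed PKCi cell, from a cluster led by Ikzf2, Tnfrsf4 and Icos, had 7 Ifnb1 UMIs, 16 Ifih1 UMIs and a readout of 35922 CPM. The best marker list of that cluster was that of T cells, with 7 markers at 50 CPM or more, though it stayed unnamed.

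Ifih1 counts were uneven in a similar way. Cells with at least 5 Ifih1 UMIs, a limit chosen after the counts were seen, numbered 34 in the PKCi library and 18 in the control library. The highest had 52 UMIs in the PKCi library and 21 in the control library. In the main population 8 such PKCi cells held 167 of 666 Ifih1 UMIs (25.1%), and 4 such control cells held 26 of 473 (5.50%). The UMIs of all other cells amounted to 2.42 CPM in PKCi and 2.21 CPM in control cells of the main population, so the difference between the libraries lay largely in those few cells. In macrophage-like cells 5 PKCi cells held 58 of 226 UMIs, 31 of them in 1 cell, and 2 control cells held 14 of 87, and the other cells amounted to 24.5 and 17.1 CPM. In monocyte-like cells 2 PKCi cells held 17 of 97 UMIs and 5 control cells held 50 of 158, and the other cells amounted to 21.1 and 25.9 CPM. The lymphoid and dendritic levels also rested on few cells: 2 PKCi cells held 42.2% and 2 control cells held 70.0% of the Ifih1 UMIs of dendritic-like cells, 2 and 1 cells held 47.1% and 45.5% in T-like cells, and 3 and 1 cells held 60.7% and 77.8% in NK-like cells.

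The cells high in Ifih1 had a readout of 3689 CPM in the PKCi library and 2963 CPM in the control library. Cells with 1 to 4 Ifih1 UMIs had 952 and 720 CPM, and cells with none had 525 and 472 CPM. The same order was seen for Zbp1, whose high cells (24 in the PKCi library and 35 in the control library, again at least 5 UMIs) had 4074 and 2791 CPM, against 527 and 457 CPM in cells without a Zbp1 UMI. These sums pool all classes, and the classes differed in the readout. T-like cells had 3783 CPM in the PKCi and 3327 CPM in the control library, and main population cells without an Ifnb1 UMI had 538 and 479 CPM. Isg15 stood at 171 and 136 CPM in T-like cells. Ccl5, also in the readout, was among the 10 leading genes of a T-like cluster and of the dendritic-like cluster. The part of single genes in these class levels was not tested, so they are not a measure of an interferon response. The main population held 8 PKCi and 4 control cells of those high in Ifih1, and 14 and 16 of those high in Zbp1. Deeper cells are also more likely to hold a UMI of any gene. The parts of class and depth in this order were not tested. The highest count in 1 cell of the main population was 15 in PKCi and 21 in control cells for Zbp1, 20 and 20 for Tbk1, 14 and 11 for Tmem173 and 5 and 12 for Ikbke. It was 8 and 9 for Cgas, 7 and 7 for Mavs and 6 and 7 for Irf3. Cells with 5 or more Tbk1 UMIs, 432 in the PKCi library and 648 in the control library, held 31.3% and 40.0% of its UMIs there.

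**Figure D2:**
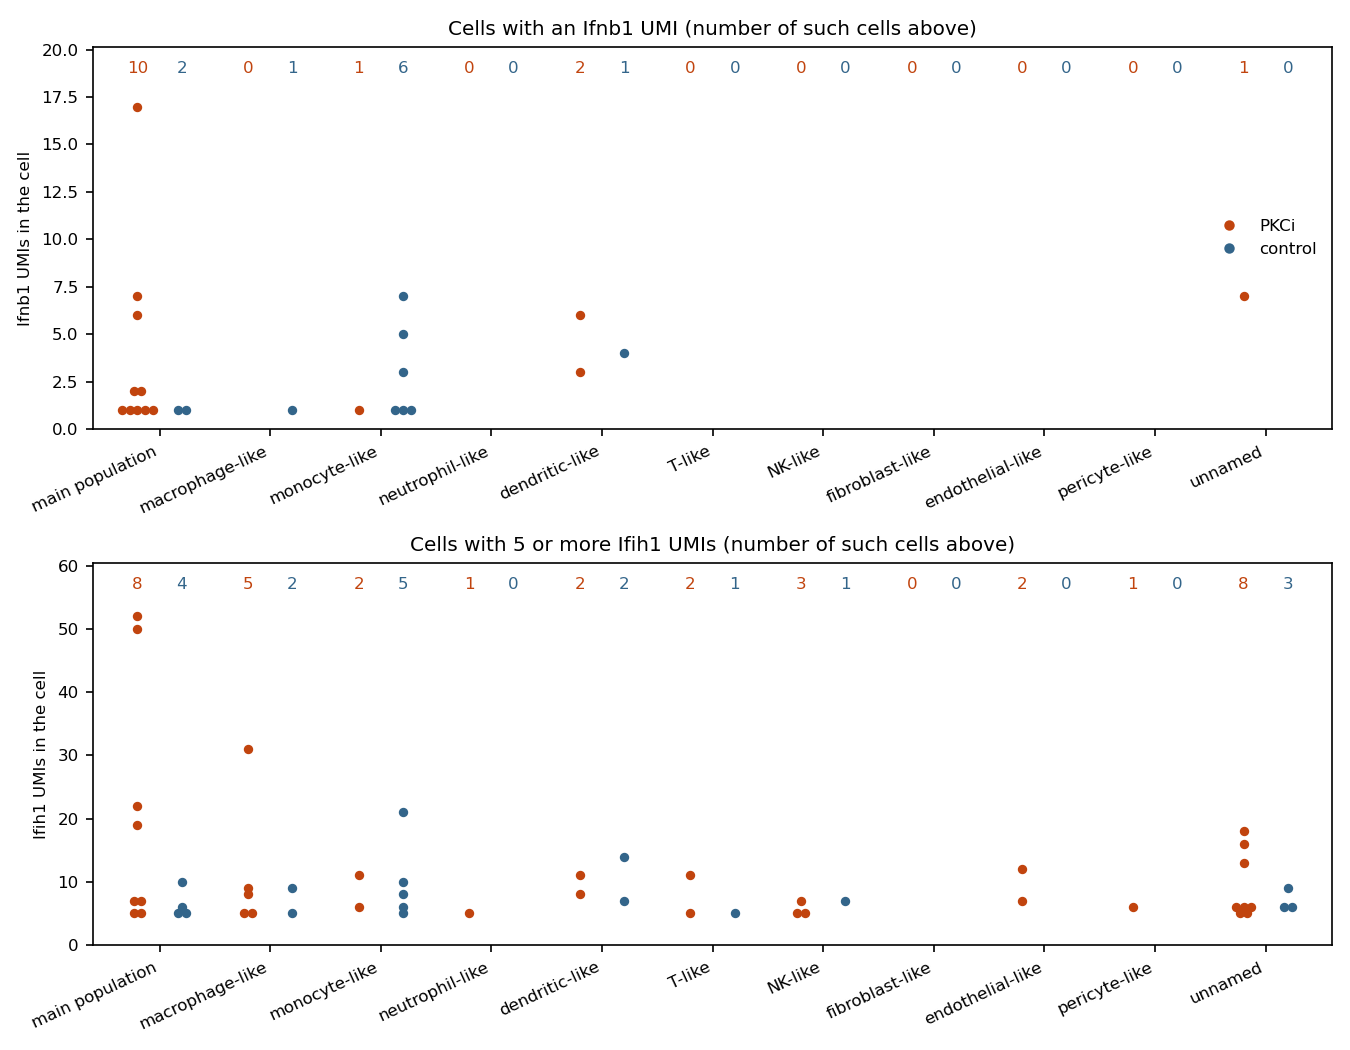
Each point is a cell with an Ifnb1 UMI (top, y axis in UMIs of that cell) or with 5 or more Ifih1 UMIs (bottom), by class, PKCi left of control, with the number of such cells above. Ifnb1 cells number 10 and 2 in the main population and 1 and 6 in monocyte-like cells, and 2 PKCi cells of the main population hold 52 and 50 Ifih1 UMIs.

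To compare the libraries within a class, a gene was called when it had at least 50 UMIs over both libraries and its level differed at least 1.5-fold. Only the 4 classes that held 100 cells or more of both libraries were compared so. Of the 10 genes, 8 had enough UMIs in the main population, 8 in macrophage-like, 7 in monocyte-like and 3 in neutrophil-like cells.

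In the main population no member was called in either direction, where 3.68% of all 15743 genes measured were called higher and 4.57% lower. Ifih1 had a ratio of 1.38 (1.22 to 1.56) and Mavs of 1.10 (1.04 to 1.16). Ikbke had a ratio of 0.712 (0.655 to 0.774), Tbk1 of 0.830 (0.807 to 0.854) and Zbp1 of 0.831 (0.725 to 0.953). Cgas, Tmem173 and Irf3 lay between 1.04 and 1.05. The median log2 ratio was 0.06 over the 8 members and -0.02 over all genes measured. The difference in Tbk1 was small. Its PKCi level was below its control level in 10 of 10 clusters that held 50 or more cells of both libraries, in 5 of them with intervals apart. For Ikbke this was so in 8 of the 10, in 4 with intervals apart. The clusters are parts of the same 2 libraries and not replicates, and the share of all genes with such a pattern is not given here.

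In macrophage-like cells Tmem173 and Ifih1 were called higher and no member lower, beside 11.8% of 9821 genes called higher and 4.67% called lower. Tmem173 had 373 UMIs in the PKCi library and 131 in the control library, a ratio of 1.77 (1.45 to 2.18). Ifih1 had 226 and 87 UMIs, a ratio of 1.61 (1.26 to 2.09). Ikbke had a ratio of 1.27 (1.07 to 1.51) and Cgas of 0.728 (0.523 to 1.02), and the ratios of Zbp1, Mavs, Tbk1 and Irf3 had intervals that included 1. The median log2 ratio of the 8 members was -0.03, against 0.09 over all genes measured. Marker levels moved with this class: the 8 macrophage markers summed to 15914 CPM in PKCi and 24300.5 CPM in control cells, and the 8 monocyte markers to 3607 and 1659 CPM, and their part in these ratios was not tested. Both calls depended on how cells were assigned. When each cell was assigned by its own marker levels the log2 ratios were 0.58 for Tmem173 and 0.40 for Ifih1, and when the members and pathway genes were left out of the clustering they were 0.52 and 0.30, all short of the call.

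In monocyte-like cells Zbp1 was called lower and no member higher, beside 6.26% of 8422 genes called lower and 12.4% called higher. It had 161 UMIs in PKCi and 359 in control cells, a ratio of 0.493 (0.407 to 0.595). After each cell was thinned to 5000 UMIs, 16.6% of 349 PKCi cells and 28.0% of 422 control cells held a Zbp1 UMI, against 23.2% of 469 and 35.9% of 487 before thinning. The main population, the class lowest in this gene, had thinned shares of 1.39% and 1.31%, at median depths of 35323 and 38252 UMIs against 6887 and 7549 UMIs in monocyte-like cells. Short of the call, Tbk1 had a ratio of 0.698 (0.593 to 0.819) and Ifih1 of 0.675 (0.519 to 0.875). Tmem173 had a ratio of 1.36 (1.05 to 1.77) and Ikbke of 1.25 (1.03 to 1.52). The median log2 ratio over all genes measured was 0.14 in this class, and relative to it Zbp1, Tbk1 and Ifih1 were all past the 1.5-fold limit. The 6.26% above holds without this centring, and the share of all genes past the limit with it is not given here. Monocyte markers summed to 6713 CPM in PKCi and 3944 CPM in control cells, macrophage markers to 3843 and 5174 CPM and neutrophil markers to 469 and 1232 CPM, and their part in these ratios was not tested.

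In neutrophil-like cells Zbp1 was called lower, with 9 UMIs in PKCi and 44 in control cells and a ratio of 0.354 (0.152 to 0.736), beside 8.22% of 5999 genes called lower and 27.9% called higher. It was no longer called when cells were assigned by their own markers, with a count minimum of 200 or after thinning to 5000 UMIs. No member was called higher. Tbk1 and Ikbke, the other 2 members with enough UMIs, had ratios of 0.856 (0.645 to 1.13) and 0.963 (0.618 to 1.48). The libraries differed in this class beyond the members: the median log2 ratio of all genes measured was 0.31, median depths were 2061 UMIs in PKCi and 3408 UMIs in control cells, and Krt8 stood at the shares of its main population level given above. The 8 neutrophil markers summed to 25127 CPM in PKCi and 99353 CPM in control cells, and their part in these ratios was not tested. With the main population profile taken off in proportion to Krt8, the log2 ratio of Zbp1 was -0.83, against -1.43 before.

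**Figure D3:**
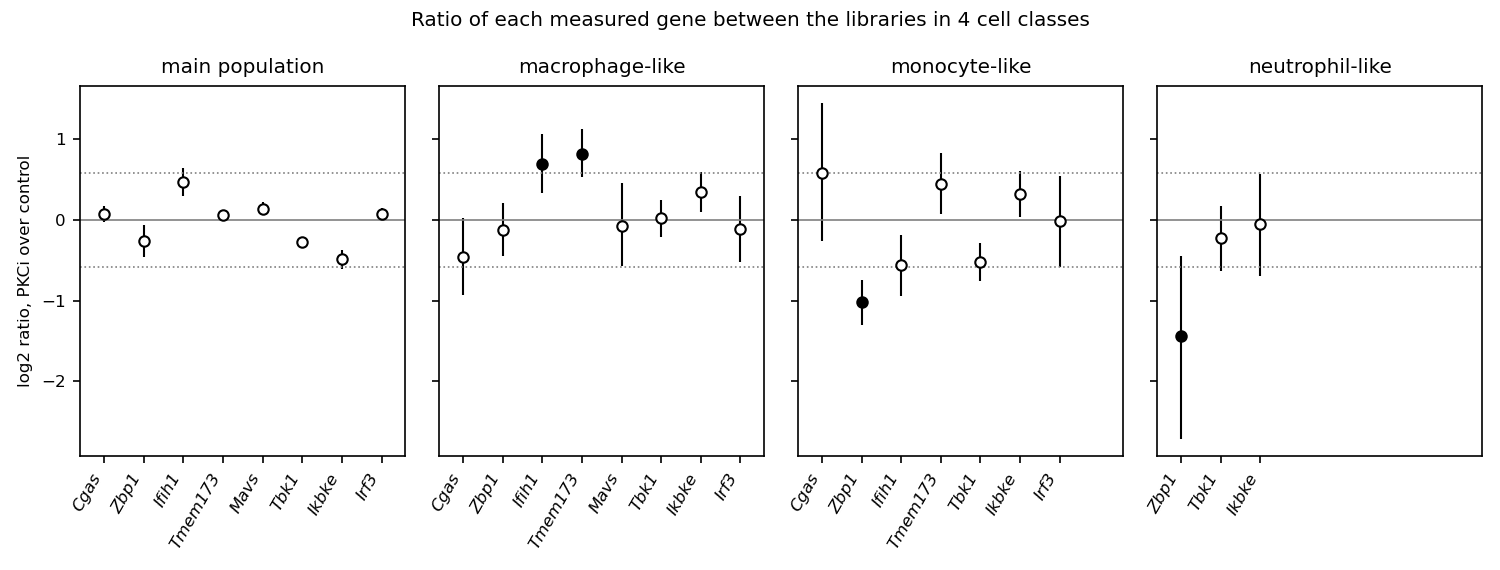
The log2 ratio of PKCi over control (y axis) for each member with at least 50 UMIs in 4 classes, with exact 95% intervals; filled points passed 1.5-fold (dotted lines). Zbp1 lies at -1.02 in monocyte-like and -1.43 in neutrophil-like cells, and Tmem173 at 0.82 and Ifih1 at 0.69 in macrophage-like cells.

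Within the main population, Zbp1 and Ifih1 were highest in the cluster that was highest in the interferon-stimulated gene Isg15, for Ifih1 in the PKCi library only with 1 cell counted, and Tbk1 was not. That cluster held 23 PKCi and 27 control cells and was led by Rsad2, Ifit1, Ifit3 and Isg15. There Zbp1 reached 47.6 CPM (35.0 to 63.3) in PKCi and 88.7 CPM (71.2 to 109) in control cells, against 1.68 and 1.86 CPM in the rest of the main population. Ifih1 reached 42.5 CPM (30.7 to 57.5) and 18.9 CPM (11.4 to 29.6), against 3.04 and 2.26 CPM. One PKCi cell held 19 of the 42 Ifih1 UMIs, and without it the PKCi level was 25.7 CPM. Tbk1 stood at 53.7 and 53.8 CPM, against 43.5 and 52.5 CPM, and Irf3 at 16.2 and 14.0 CPM, against 15.3 and 14.5 CPM. The clusters were built from all variable genes, so these levels are a description.

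Among the clusters with at least 50 cells, Zbp1 ranged from 0.410 to 9.56 CPM in the PKCi library and from 0.565 to 7.67 CPM in the control library. Ifih1 ranged from 1.25 to 28.4 CPM and from 0.815 to 6.92 CPM, with the top value of each library in the cluster led by Cxcl10, Isg15 and Ly6c1 (147 PKCi and 69 control cells). There, 4 PKCi cells held 86 of 116 Ifih1 UMIs, and the other PKCi cells amounted to 7.35 CPM. Tbk1 had its lowest levels, 19.9 CPM in PKCi and 21.2 CPM in control cells, in a cluster of 786 and 379 cells led by Cxcl10, Ly6c1 and Ly6a. Mavs stayed between 10.8 and 17.1 CPM in the PKCi library and between 10.8 and 16.7 CPM in the control library.

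**Figure D4:**
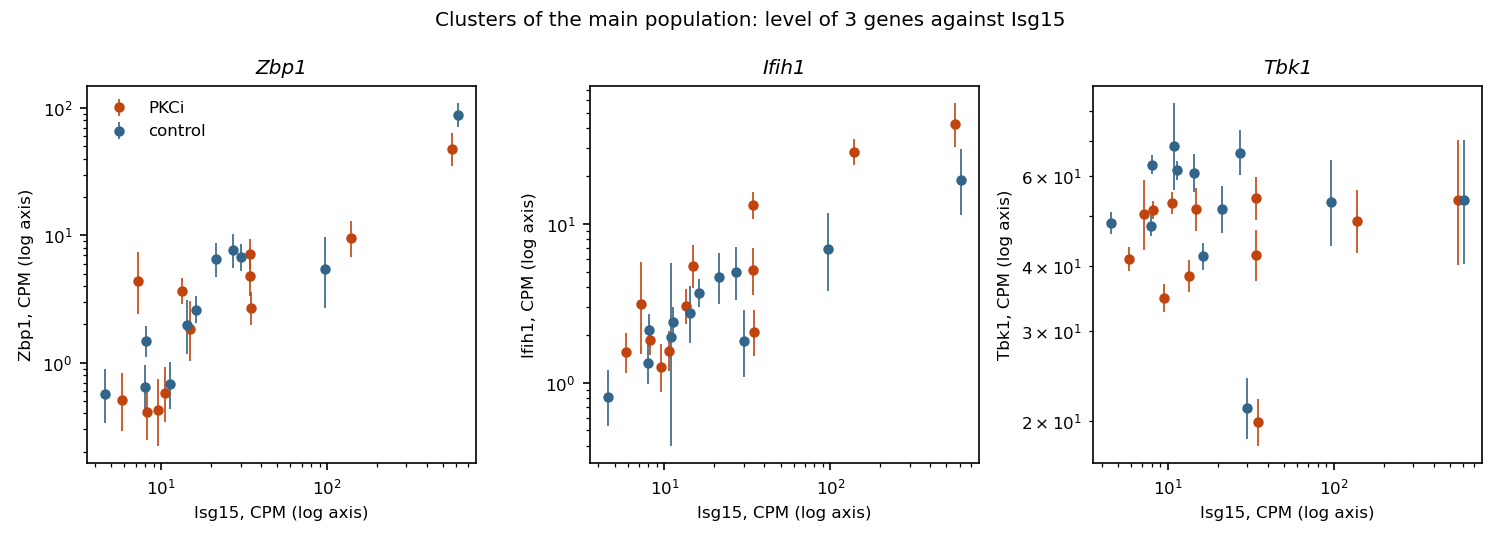
Each point is a cluster of the main population with at least 20 cells in that library: level of Zbp1, Ifih1 or Tbk1 (y axis) against Isg15 (x axis), both in CPM on log axes, with exact Poisson 95% intervals. Zbp1 and Ifih1 are highest where Isg15 is highest, and Tbk1 lies at 53.7 and 53.8 CPM there and lowest in a cluster with Isg15 at 34.8 and 30.1 CPM in PKCi and control cells.

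Genes whose levels ran most like each member were sought over the 16 sums of 8 classes and 2 libraries, by Pearson's r of log2(CPM + 1) among 10094 genes. The points share libraries and their sums differ widely in depth, so r is a description. Zbp1 ran most like Gsdmd (r = 0.93), the pore-forming gasdermin D, the interferon factor Irf7 (0.90) and Gngt2 (0.90). Ifih1 ran most like Lrch1 (0.94), Sp110 (0.94) and Vps28 (0.92). For Tmem173 these were Arl5a, Atl3 and Med16 (0.86, 0.85 and 0.85), for Tbk1 Pla2g7, Rab31 and Plaur (0.90, 0.89 and 0.89) and for Ikbke Hk1, Hgsnat and Atp2c1 (each 0.83). Mavs ran most like Gpatch2 and Snx9 (each 0.86) and Reep4 (0.81), Irf3 like Tomm40l (0.88), Atad1 (0.80) and Ascc1 (0.79), and Cgas like Cnot8 (0.73), C2cd2l and Dnmt3a (each 0.72). Ifnb1 ran most like Kynu, Bcl11a and Hepacam2 (0.96, 0.95 and 0.94), but most of its sums were 0 and the value rests on dendritic-like cells. Between members the highest r were 0.78 for Zbp1 with Ifih1 and 0.71 for Cgas with Mavs.

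The wider pathways were read from 7 lists. In monocyte-like cells, 6 of 12 RNA sensor genes with enough UMIs were called lower and none higher, with a median log2 ratio of -0.55, among them Oasl1 and Oasl2 and the endosomal receptors Tlr7 and Tlr13. The counts of this paragraph stand beside 6.26% of all genes called lower and 12.4% called higher in the class, and the marker levels given above moved with it. Of 5 DNA sensors and partners, 2 were lower. Ifi203 had 68.0 CPM in PKCi and 162 CPM in control cells (ratio 0.420), and Ifi204, a DNA-binding member of the same interferon-inducible family, 82.0 and 188 CPM (0.437). Of 14 readout genes 3 were lower, led by Isg15 at 64.9 and 152 CPM (0.427), and 1, Cmpk2, was higher at 13.7 and 6.96 CPM. Among clearance genes Banf1, which coats cytosolic DNA, was the only one called of 12, higher at 130 and 83.2 CPM. Of 13 adaptors, kinases and factors, 3 were lower (Ticam1, Irf1 and Sqstm1), and no ZBP1 partner of 4 was called.

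In macrophage-like cells 3 of 14 RNA sensors were called higher (Tlr3, Oasl1 and Oasl2) and none lower, with a list median of 0.03. The counts of this paragraph stand beside 11.8% of all genes called higher and 4.67% called lower in the class, and the marker levels given above moved with it. Of 13 readout genes 3 were higher: the chemokine Ccl5 at 75.1 CPM in PKCi and 6.32 CPM in control cells (ratio 11.9, 8.07 to 18.2), Cmpk2 at 17.3 and 4.21 CPM, and Ifit2 at 29.0 and 11.2 CPM. Of the 5 ZBP1 partners 2 were lower, the necroptosis kinase Ripk3 at 21.3 and 40.5 CPM (0.525) and Fadd at 8.73 and 14.3 CPM, and so was the DNA-end binding subunit Xrcc6 at 6.26 and 10.3 CPM. Samhd1, which depletes nucleotides, was the only clearance gene called of 14, higher with a ratio of 1.80, and so was Stat2, a factor of interferon receptor signalling, with a ratio of 1.51.

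In the main population 6 of the 76 list genes measured were called higher and 1 lower, beside 3.68% and 4.57% of all genes. The readout held 3 of them, all higher: Ifit1 at 4.35 CPM in PKCi and 1.35 CPM in control cells (ratio 3.21), Ccl5 at 3.45 and 1.22 CPM, and Cxcl10. Oasl1, Pld4 and Enpp1 were also higher, Pld4, an endolysosomal exonuclease, at 0.645 and 0.342 CPM from 133 and 69 UMIs. Enpp1 had 34 and 19 UMIs, and the interval of its ratio (0.972 to 3.25) included 1. The endosomal RNA receptor Tlr13 was lower at 0.0776 and 0.223 CPM, from 16 and 45 UMIs. In macrophage-like cells Pld4 stood at 206 and 149 CPM and Tlr13 at 30.1 and 38.6 CPM. Neutrophil markers summed to 8.90 and 41.9 CPM in the main population. The part of free RNA from other cells in these values was not tested. No adaptor, kinase or factor of 15, no ZBP1 partner of 5 and no interferon, receptor or signalling gene of 7 was called.

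In neutrophil-like cells 4 of 8 readout genes were called higher, with Ifit1 at 47.3 CPM in PKCi and 16.4 CPM in control cells and Cxcl10 at 306 and 158 CPM, and Azi2, an adaptor of TBK1, stood at 51.5 and 24.9 CPM. Trim25, a ubiquitin ligase of RNA sensing, was lower at 56.7 and 107 CPM, as was Rnaset2a at 16.8 and 27.9 CPM, from 16 and 46 UMIs. By list, 3 of 9 adaptors, kinases and factors, 3 of 6 clearance genes and 2 of 2 ZBP1 partners were called higher. Those called lower were 1 of 7 RNA sensors and 1 of 6 clearance genes. These counts stand beside 27.9% of all genes called higher and 8.22% called lower in that class, and the neutrophil marker levels given above moved with it.

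**Figure D5:**
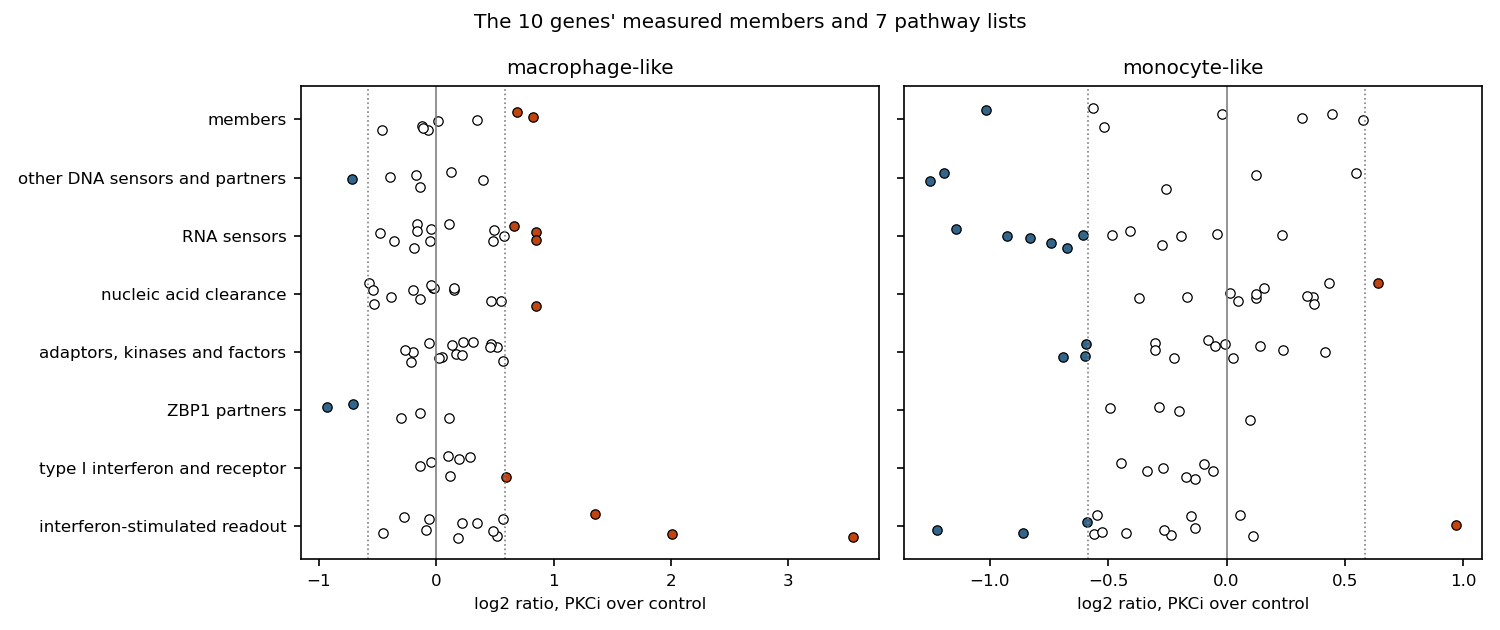
Each point is a gene with at least 50 UMIs: log2 ratio of PKCi over control (x axis) in macrophage-like and monocyte-like cells, by list (rows), filled where the level differed at least 1.5-fold (dotted lines). In monocyte-like cells 6 RNA sensors lie past the lower line, and in macrophage-like cells Ccl5 lies farthest to the right at 3.55.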

How the data were processed

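Single-cell RNA was captured from dissociated tumours (70 µm filter, 10x 3′ chemistry, NovaSeq 6000, per the labels' protocols). The deposited matrices hold UMI counts per gene and barcode that the authors made with Cell Ranger 7.0.0, per the file headers; the submitters' processing notes also name Seurat and the build GRCm38. Barcodes with under 500 genes (200 PKCi, 247 control) or over 20% mitochondrial UMIs (47 and 61) and doublets called by Scrublet in scanpy 1.11.5 (132 and 111) were removed. Cells were scaled to 10000 UMIs, reduced to 30 components of 2000 variable genes and clustered (Leiden, resolution 1.0), and clusters were named from fixed marker lists by summed levels. UMIs were summed per class and library; intervals are exact at 95% and cover counting error only, and ratio intervals are conditional on the summed UMIs. Log2 ratios were computed after adding 0.5 UMIs to the sum of each library; linear ratios had nothing added.

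Cells are not replicates, and with 1 library per treatment no p-value was computed. The 10 genes and all lists were chosen with earlier results of these data known. Naming thresholds, the limit of 5 UMIs for cells high in a gene, and the main population without its interferon-led cluster were chosen after seeing the data. List genes given with levels in both libraries are the 3 highest and 3 lowest ratios called per class; other list genes are named by count and were picked after their values were seen. Of the readout list 16 of 18 genes were in the files. In all, 13 alternatives were tried. Levels need 20 cells per library and ratios 100.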

Additional observations from a re-analysis of the deposited data

Results flagged for a closer look

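Some members had PKCi over control ratios on opposite sides of 1 in different cell classes, with 95% counting intervals that did not include 1 in either. Ifih1 had a log2 ratio of 0.46 in the main population and 0.69 in macrophage-like cells, against -0.56 in monocyte-like cells. Ikbke had log2 ratios of 0.34 in macrophage-like and 0.32 in monocyte-like cells, against -0.49 in the main population. Part of the Ifih1 values lay in cells with 5 or more UMIs: the remaining cells amounted to 2.42 CPM in PKCi and 2.21 CPM in control cells of the main population, 24.5 and 17.1 CPM in macrophage-like cells and 21.1 and 25.9 CPM in monocyte-like cells. With 1 library per treatment these differences between classes were not tested. Unnamed cells, which enter no comparison, held Ifih1 at 34.7 CPM in the PKCi library and 18.1 CPM in the control library. Of those UMIs, 69.4% lay in 8 PKCi cells and 43.8% in 3 control cells, and the remaining cells amounted to 10.6 and 10.2 CPM. Most of these 8 PKCi cells and all 3 control cells lay in the unnamed cluster whose best marker list was that of T cells.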

How the results depend on the processing

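No paired analysis was possible because each treatment has 1 library. Of the log2 ratios of single members, none that was called changed sign. Zbp1 stayed below 0 in monocyte-like cells (-1.15 to -0.72 over 10 alternatives) and in neutrophil-like cells (-1.75 to -0.82 over 9). In macrophage-like cells Tmem173 ranged from 0.52 to 1.19 and Ifih1 from 0.02 to 0.77 over 11, so the Ifih1 call rests on how cells are grouped and filtered. The count of members called higher in macrophage-like cells, 2 as reported, was 1 with the strict cell filter, doublets kept, resolution 0.5 or the mean over cells, and 0 when clustered without list genes, when assigned by markers or at a fold of 2. The count lower there, 0 as reported, was 1 with the strict filter, resolution 0.5 or clustering without list genes. In monocyte-like cells 3 members, not 1, were lower in median-centred ratios, and 1, not 0, was higher at a count minimum of 20. In the main population 1, not 0, was higher at a count minimum of 20 or with the mean over cells. In neutrophil-like cells the count higher, 0 as reported, was 2 at a count minimum of 20 and 1 when assigned by markers, with the mean over cells or with the main population profile subtracted. The count lower there, 1 as reported, was 0 when assigned by markers, at a count minimum of 200 or with cells thinned to 5000 UMIs. The median log2 ratio of its members was 0.25 with the main population profile subtracted. The causes of these shifts were not tested, and the shares of all genes called under the alternatives are not given here. Without the interferon-led cluster, an alternative chosen after seeing the data, Ifih1 in the main population had a log2 ratio of 0.43 and no member was called. The strict filter was not run for neutrophil-like cells (43 PKCi and 178 control cells), nor resolution 0.5 for monocyte-like cells, which merged with macrophage-like cells.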
